A study of Mus musculus with 10 samples.

Results

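The Igkv6 family is one of the V gene families of the mouse immunoglobulin kappa light chain locus (Igk). It was followed here through 8 segments: Igkv6-13, Igkv6-14, Igkv6-15, Igkv6-17, Igkv6-20, Igkv6-23, Igkv6-25 and Igkv6-32 (written IGKV6-13, IGKV6-14, IGKV6-15, IGKV6-17, IGKV6-20, IGKV6-23, IGKV6-25 and IGKV6-32 in the table). A rearrangement was assigned to the family when the V segment named for it in the deposited table, with the allele number removed, was one of these 8 of the 114 V segments seen. They took 10020 of the 161780 counts in the table, 6.19% of the total. Igkv6-29, a further segment with a family number of 6, was not on the list and was left as a feature of its own, at 29 counts.

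The data are a repertoire of Igk rearrangements read from the RNA of small pre-B cells sorted by flow cytometry from mouse bone marrow. The mice were C57Bl6 animals of 6 to 12 weeks, either wild type (WT, 5 replicates) or of a genotype labelled rsCBE (5 replicates), which the series' design writes as ΔrsCBE. The labels do not spell out rsCBE, the series' title concerns CTCF, chromatin topology and receptor editing, and how the allele was made is not given in the sources used here, and a further genotype that the design names is not analysed here. The labels do not say that replicates are separate animals, so p-values refer to these samples, and whether they extend to mice is not known. Each line of the table gives a V segment, a J segment, the bases of the CDR3 and a count, and no other genes were measured, so the cell type label could not be checked against markers. Totals ran from 3109 to 24083 counts per sample, and Igkv6 counts from 169 in WT replicate 4 to 1527 in WT replicate 1. Replicates 1 and 2 of both genotypes stand in the table as 1 library each and replicates 3 to 5 as 2 parts each, which were added; these sets of 4 and 6 samples are called batch 1 and batch 2, although the labels name no batch. A share of counts reflects both the number of cells that carry a rearrangement and the transcripts in each cell, and these cannot be told apart here.

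An Igk gene is assembled in a pre-B cell by cutting 1 V and 1 J segment at their recombination signal sequences and joining them. The locus has functional segments Jκ1, Jκ2, Jκ4 and Jκ5, in that order, and Jκ3, which does not give a functional chain. A cell whose first joint is out of frame, or whose receptor binds self, can replace it by joining a V segment upstream to a J segment downstream, a process called receptor editing, so joints to Jκ5 are commonly read as late ones. V segments that lie in the same direction as the J segments are joined by deletion of the DNA between them, and those in the opposite direction by inversion. CTCF is a DNA-binding protein that anchors chromatin loops, and such loops shape which V segments meet the J segments.

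The 8 segments were spread over the middle of the V region on chromosome 6 (GRCm38, GENCODE M21), between 264.5 kb and 648 kb upstream of Jκ1, and each was annotated as a V gene of 2 exons. From the farthest to the nearest they were Igkv6-32 (chr6:70074024-70074603), Igkv6-25 (chr6:70215400-70215957), Igkv6-23 (chr6:70260409-70260955), Igkv6-20 (chr6:70335841-70336507), Igkv6-17 (chr6:70371439-70371993), Igkv6-15 (chr6:70406469-70406992), Igkv6-14 (chr6:70434952-70435476) and Igkv6-13 (chr6:70457501-70458036). Igkv6-25 and Igkv6-17 lay on the plus strand, in the direction of the J segments, and so join by deletion. The other 6 lay on the minus strand and join by inversion. The germline bases that each segment can give to the CDR3, counted from 1 after the codon of the conserved cysteine and lying at the end of the second exon, are shown because both the assignment of a joint to a segment and the reading frame rest on them. Each is 23 bases, with capitals where a base differs from the commonest base of the family at that position, ties being settled alphabetically.
Igkv6-32: cagcaGGattaTagctCtcctcc
Igkv6-25: cagcaacattaTagcACtcctcc
Igkv6-23: cagcaaTatAGcagctatcctcT
Igkv6-20: GGAcaGAGttacagctatcctcc
Igkv6-17: cagcaacattaTagTACtcctcc
Igkv6-15: cagcaaTatAacagctatcctcT
Igkv6-14: cTgcaacattGGaATtatcctcT
Igkv6-13: cagcaaTatAGcagctatcctcT
The ends of Igkv6-13 and Igkv6-23 were identical, and over the last 280 bases of their transcripts these segments shared 96.1% of bases. Igkv6-15 differed from Igkv6-23 in the CDR3 by A11G alone, and Igkv6-17 from Igkv6-25 by T15C alone. Igkv6-20 differed from all the others in its first 3 bases. All 8 ended in tcctc followed by c or T, so the last base divided the family into 4 segments ending in c (Igkv6-17, Igkv6-20, Igkv6-25 and Igkv6-32) and 4 ending in T. The J segments add the following germline bases up to the codon of the conserved phenylalanine. Jκ5 shares the bases ctc with the V ends.
Jκ1: gtggacg
Jκ2: tgtacacg
Jκ4: attcacg
Jκ5: gctcacg

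By mean share of all counts Igkv6 ranked 6th, at 6.23%, among 21 features, which were 20 V families and Igkv6-29. In WT samples the family took 6.71%, 6.50%, 6.62%, 5.44% and 7.22% of counts in replicates 1 to 5. In rsCBE samples it took 5.73%, 5.15%, 6.14%, 6.46% and 6.31%. The ranges overlapped, and the difference did not pass the test: WT 6.50% ± 0.652 (SD, n = 5) against rsCBE 5.96% ± 0.528 (SD, n = 5), a change of -0.13 on the log2 scale (SE 0.12) with an adjusted p of 0.591 over all V families (edgeR, quasi-likelihood F-test). It was -0.079 without rsCBE replicate 2, -0.068 with TMM scaling factors and -0.045 with each clonotype counted once. None of the 20 families tested was called (0%), and 2 of them (10%), not including Igkv6, were under an unadjusted p of 0.05. The fitted change was -0.28 within batch 1 (adjusted p = 0.298 by edgeR) and -0.04 within batch 2 (adjusted p = 0.834 by edgeR).

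The 8 segments contributed very unequally. Igkv6-17 and Igkv6-32 together supplied more counts than the other 6, with 29.0% and 28.4% of the family's counts. Igkv6-20 gave 13.9%, Igkv6-15 gave 11.9%, Igkv6-23 gave 6.32%, Igkv6-13 gave 5.79%, Igkv6-25 gave 2.77% and Igkv6-14 gave 1.91%. As a share of all Igk counts, averaged over the 10 samples, the order was Igkv6-32 (1.78%), Igkv6-17 (1.69%), Igkv6-20 (0.858%), Igkv6-15 (0.846%), Igkv6-23 (0.433%), Igkv6-13 (0.294%), Igkv6-25 (0.185%) and Igkv6-14 (0.145%). Between neighbours in this order only Igkv6-15 stood above the next segment, Igkv6-23, in all 10 samples. Igkv6-17 was above Igkv6-20 in 9 of 10 samples, whereas Igkv6-32 was above Igkv6-17 in 6 of 10. The pooled ranges overlapped for every neighbouring pair. The order of some neighbours differed between the sets of libraries: Igkv6-20 was above Igkv6-15 in 4 of 4 samples of batch 1 and 0 of 6 of batch 2, and Igkv6-23 was above Igkv6-13 in 0 of 4 and 6 of 6. Igkv6-32 was above Igkv6-17 in 1 of 4 and 5 of 6. By mean share the farthest segment, Igkv6-32, was the commonest, and the nearest, Igkv6-13, was 6th of the 8. The pair that joins by deletion included both a common segment, Igkv6-17, and a rare one, Igkv6-25.

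No segment of the family was called between genotypes. Igkv6-32 had the lowest p of the 8: it took 1.96%, 1.85%, 1.96%, 1.25% and 2.66% of counts in WT replicates 1 to 5 and 1.46%, 1.34%, 1.65%, 1.995% and 1.68% in the rsCBE replicates. The groups overlapped through WT replicate 4 and rsCBE replicate 4, and the fitted change was -0.26 on the log2 scale (SE 0.21, edgeR adjusted p = 0.973). It was -0.13 without WT replicate 5 and -0.15 with each clonotype counted once. Igkv6-17 had almost the same mean share in WT (1.68% ± 0.556, SD, n = 5) as in rsCBE (1.69% ± 0.180, SD, n = 5), and a fitted log2 change of -0.0035 (SE 0.23). Over all V segments, 0 of 98 tested were called (0%) by edgeR and 0 by DESeq2, while 7 (7.14%) were under an unadjusted p of 0.05 by edgeR, none of them a member. Fitted changes were below 0 for 7 of the 8 members, as for 55.1% of all segments tested; the exception was Igkv6-13 at 0.23 (SE 0.60). The median over the 8 was -0.09, beside -0.05 over all 98.

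**Figure D1:**
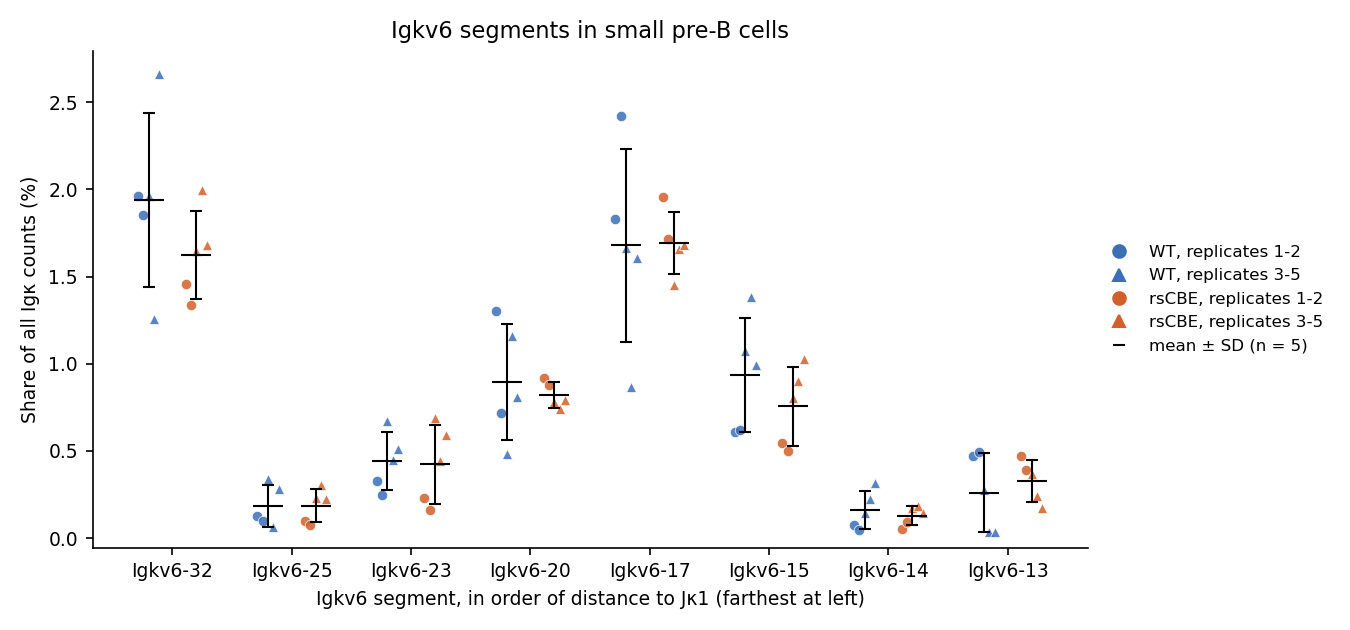
Share of all Igκ counts (%, vertical axis) of each Igkv6 segment, ordered by distance to Jκ1; each point is 1 sample, circles are replicates 1 and 2, triangles replicates 3 to 5, and the black bar and whiskers are the mean ± SD of 5 samples. WT and rsCBE overlap for every segment, while circles and triangles separate for Igkv6-13, Igkv6-14, Igkv6-15, Igkv6-17 and Igkv6-23.

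More segments were called between the sets of libraries than between genotypes. In batch 1 Igkv6-23 averaged 0.242% ± 0.0665 (SD, n = 4), and in batch 2 it averaged 0.560% ± 0.108 (SD, n = 6), with no overlap. Igkv6-15 averaged 0.570% ± 0.0578 (SD, n = 4) and 1.03% ± 0.198 (SD, n = 6), again with no overlap. These segments were commoner in batch 2, as was Igkv6-14, which averaged 0.0664% ± 0.0198 (SD, n = 4) and 0.197% ± 0.0654 (SD, n = 6) and did not overlap either. Igkv6-13 moved the other way: it fell from 0.456% ± 0.0455 (SD, n = 4) to 0.186% ± 0.134 (SD, n = 6), and was at 1 count in WT replicate 4 and 3 counts in WT replicate 5. These 4 and Igkv6-25, which rose, were called between batches by edgeR, with adjusted p values from 0.000423 to 0.0113, so 5 of 8 members were called, near the 57% of all 100 segments tested. Igkv6-17 did not overlap between the batches either, from 1.72% to 2.42% in batch 1 and from 0.868% to 1.68% in batch 2, but it was not called (log2 change -0.38, edgeR adjusted p = 0.0596). The near-identical pair Igkv6-13 and Igkv6-23 thus moved in opposite directions while their summed share averaged 0.698% ± 0.104 (SD, n = 4) in batch 1, beside 0.746% ± 0.224 (SD, n = 6). The part of read assignment in this was not tested. The family as a whole was not called between batches (log2 change 0.09, edgeR adjusted p = 0.442), although 55% of the 20 families were.

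The choice of J segment within the family differed between genotypes. Igkv6 rearrangements used Jκ5 more often in rsCBE cells, and the mean share of Jκ1 was lower there without passing the test. The share of Igkv6 counts joined to Jκ5 was 25.3%, 22.0%, 21.1%, 28.4% and 24.7% in WT replicates 1 to 5. It was 35.0%, 33.8%, 36.1%, 33.4% and 42.3% in rsCBE replicates 1 to 5. All rsCBE samples lay above all WT samples, and the highest WT value came from the sample with the fewest counts, WT replicate 4, where the 95% Wilson interval ran from 22.1% to 35.6%. Intervals cover counting error only. The means were 24.3% ± 2.89 (SD, n = 5) and 36.1% ± 3.60 (SD, n = 5), a difference of 11.8 percentage points. The exact two-sided permutation test gave p = 0.00794, the smallest that 5 against 5 samples allow, and an adjusted p of 0.0337 over the 17 V families with enough counts. With the replicate number as a block, the exact sign-flip test over 5 pairs gave p = 0.0625, the smallest it allows, and an adjusted p of 0.152; with labels exchanged only within batches the adjusted p was 0.0567. The adjusted p was also above the threshold without any 1 of rsCBE replicates 1, 2, 3 and 5, from 0.0506 to 0.0578 by exact permutation, with differences from 10.3 to 12.4 points. The unadjusted exact permutation p was 0.00794 whichever single sample was left out, so only the adjustment over families moved. The difference was 10.7 points within batch 1 and 12.5 points within batch 2.

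Higher use of Jκ5 was seen across the repertoire. Of the 17 families tested, 8 were called for Jκ5 (47.1%), 4 did not overlap (23.5%) and all 17 (100%) had a higher mean in rsCBE. The difference in Igkv6 was the 5th in size among them. The V segments outside the family differed by 10.4 points, and the shift of Igkv6 against them was 1.39 points (exact permutation test of the difference, p = 0.508). The sign of this shift was not the same in the batches: Igkv6 differed by 10.7 points and the other V segments by 14.8 points in batch 1, and by 12.5 and 7.52 points in batch 2.

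Jκ1, the J segment nearest to the V region, was used in 30.3%, 33.6%, 32.1%, 26.6% and 36.6% of Igkv6 counts in WT replicates 1 to 5. In rsCBE replicates it was used in 22.2%, 25.3%, 26.8%, 24.8% and 19.3%. The ranges touched only at WT replicate 4 and rsCBE replicate 3. The means were 31.8% ± 3.72 (SD, n = 5) and 23.7% ± 2.97 (SD, n = 5); the difference was -8.16 points (p = 0.0159, exact permutation) and missed the threshold after adjustment (adjusted p = 0.0540, with 23.5% of the 17 families called). It was -8.21 points in batch 1 and -8.12 points in batch 2, and without WT replicate 4 it was -9.46 points with an adjusted p of 0.0193 by the exact permutation test. With each clonotype counted once the Jκ1 difference was -4.84 points (adjusted p = 0.101, exact permutation). Jκ2 was used in 24.9% ± 4.45 (SD, n = 5) and 23.4% ± 2.23 (SD, n = 5), and Jκ4 in 18.8% ± 6.11 (SD, n = 5) and 16.8% ± 2.38 (SD, n = 5), with adjusted p of 0.646 and 0.916 by exact permutation (0% of families called for either). The Jκ2 difference of -1.55 points was -3.50 points without WT replicate 4 (p = 0.0238 and adjusted p = 0.0810, exact permutation) and -3.90 points with each clonotype counted once (p = 0.0238 and adjusted p = 0.180, exact permutation). The Jκ4 difference of -1.98 points turned to 0.285 points without WT replicate 4 and to 0.873 points with each clonotype counted once. Jκ3 reached at most 0.656% of Igkv6 counts in a sample.

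**Figure D2:**
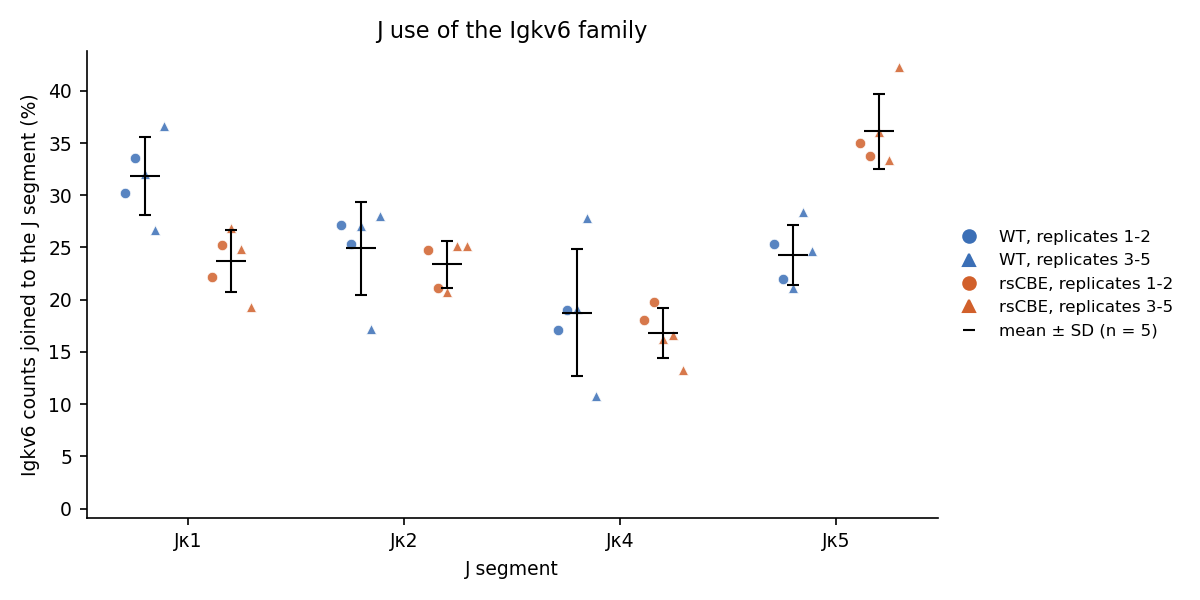
Share of Igkv6 counts joined to each J segment (%, vertical axis); points are samples (circles, replicates 1 and 2; triangles, replicates 3 to 5) and black bars the mean ± SD of 5 samples per genotype. For Jκ5 the 5 rsCBE samples, from 33.4% to 42.3%, lie above the 5 WT samples, from 21.1% to 28.4%; the other J segments overlap.

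Members of the family differed widely from one another in their partner J segment. In counts pooled over all samples, Jκ1 took 42.7% of Igkv6-17 counts, 40.6% of Igkv6-25 counts and 38.2% of Igkv6-32 counts. It took 10.3% of Igkv6-15, 4.59% of Igkv6-20 and 3.10% of Igkv6-13. In every sample Igkv6-17 used Jκ1 more than Igkv6-15, Igkv6-20 and Igkv6-23 did in any, its lowest sample being at 32.1% and their highest at 23.0%. Among the segments poor in Jκ1, the J segment with the highest mean share in WT was Jκ5 for Igkv6-15 (47.3%), Jκ4 for Igkv6-20 (39.9%) and Jκ2 for Igkv6-23 (33.2%) and Igkv6-13 (65.2%, with samples of 1 and 3 counts). In rsCBE it was Jκ5 for all 4, with mean shares from 37.3% to 52.5%. The WT lead of Jκ4 for Igkv6-20, with Jκ2 at 27.9%, includes WT replicate 4, where 36 counts gave 66.7% Jκ4 and 0% Jκ2.

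Jκ5 was then compared segment by segment for the 6 members with a mean of at least 50 counts per sample; Igkv6-14 and Igkv6-25 were under that mean. By mean it was higher in rsCBE for 5 of the 6, as for 92.8% of the 69 segments that met the same minimum, and the genotypes did not overlap for 4 of the 6, beside 15.9% of the 69. Igkv6-32 joined Jκ5 in 23.5%, 19.7%, 9.59%, 0% and 20.1% of its counts in WT replicates 1 to 5, and in 34.5%, 30.8%, 32.9%, 31.0% and 38.8% in the rsCBE replicates. All rsCBE samples were above all WT samples; the 0% is 0 of 39 counts, which allows a share of up to 7.69%. Igkv6-23 was at 25.7%, 32.1%, 23.7%, 35.7% and 23.4% in WT and at 48.2%, 39.5%, 47.6%, 50.8% and 55.1% in rsCBE. Again the genotypes did not overlap, although WT replicate 4 held only 14 counts of this segment.

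Igkv6-20 was at 37.0%, 30.5%, 1.49%, 33.3% and 25.7% in WT and at 46.2%, 47.5%, 50.3%, 53.3% and 54.3% in rsCBE. WT replicate 3 stood far below the other WT samples, and the highest WT sample was below the lowest rsCBE sample. Igkv6-13 was at 30.8%, 34.0%, 15.8%, 0% and 0% in WT and at 42.5%, 45.1%, 53.7%, 41.2% and 80.0% in rsCBE. Both zeros rest on 1 and 3 counts, too few to limit the share. Igkv6-17 overlapped between genotypes, at 14.6%, 13.1%, 25.2%, 7.41% and 15.6% in WT and at 27.6%, 25.2%, 29.4%, 22.0% and 32.7% in rsCBE.

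The differences were 36.4 points for Igkv6-13, 24.7 for Igkv6-20, 20.1 for Igkv6-23 and 19.0 for Igkv6-32, each with an adjusted p of 0.0498 by exact permutation over the 69 V segments tested. The unadjusted p of each was 0.00794, the smallest that 5 against 5 samples allow, which only groups that do not overlap reach. The calls are thus the same segments as those without overlap, not a further result. The difference and the call for Igkv6-13 rest in part on the zeros of WT replicates 4 and 5, with 1 and 3 counts, too few to limit the share. The Igkv6-13 difference was 11.4 points in batch 1 alone. The difference for Igkv6-17 was 12.2 points and missed the threshold (adjusted p = 0.0730 by exact permutation). Thus 4 of 6 members were called, beside 11 of 69 segments in all (15.9%), and the median difference was 19.6 points over the 6 members and 8.60 points over the 69. The 4 calls sit at the edge of the threshold: they fell to 0 when each distinct clonotype was counted once, without clonotypes of 1 count, and when any of 7 samples was left out (WT replicates 1 and 2 and each of the 5 rsCBE replicates). They were also 0 with the replicate block, but there the exact sign-flip test allows no p under 0.0625, so no call was possible. With labels exchanged within batches, where the smallest exact permutation p is 0.0167, they were 0 as well. The number of members called was 4 without WT replicate 4, the same segments, and 3 without WT replicate 5, where Igkv6-23 was lost (adjusted p = 0.0608 by exact permutation). It was 4 without WT replicate 3, with Igkv6-17 (adjusted p = 0.0456) in place of Igkv6-23 (adjusted p = 0.0608, both by exact permutation). Within batches the differences kept their direction, from 11.0 to 15.0 points in batch 1 and from 23.6 to 53.0 points in batch 2 for the 4 called segments.

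Igkv6-15 was the exception. It joined Jκ5 in 33.8%, 36.1%, 48.6%, 62.8% and 54.9% of its counts in WT and in 35.6%, 36.2%, 31.3%, 36.7% and 46.7% in rsCBE. The difference in means was 0.955 points in batch 1 and -17.2 points in batch 2, and the genotypes overlapped. The mean difference of -9.96 points did not pass the test (adjusted p = 0.248 by exact permutation), and ran from -13.3 to -6.08 points without single samples. Of the 69 segments, 7.25% had a lower mean in rsCBE. The CDR3 end of Igkv6-15 differs from that of Igkv6-23, whose Jκ5 share was higher in rsCBE, by a single base. The scarce members were not tested: Igkv6-14, with 7 to 31 counts per sample, had WT samples at 18.7% ± 18.0 (SD, n = 5) and rsCBE samples at 38.3% ± 13.8 (SD, n = 5). Igkv6-25, with 2 to 47 counts, had them at 38.9% ± 35.3 and 17.2% ± 6.08 (SD, n = 5). The WT mean of Igkv6-25 includes a value of 100% that rests on the 2 counts of WT replicate 4.

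**Figure D3:**
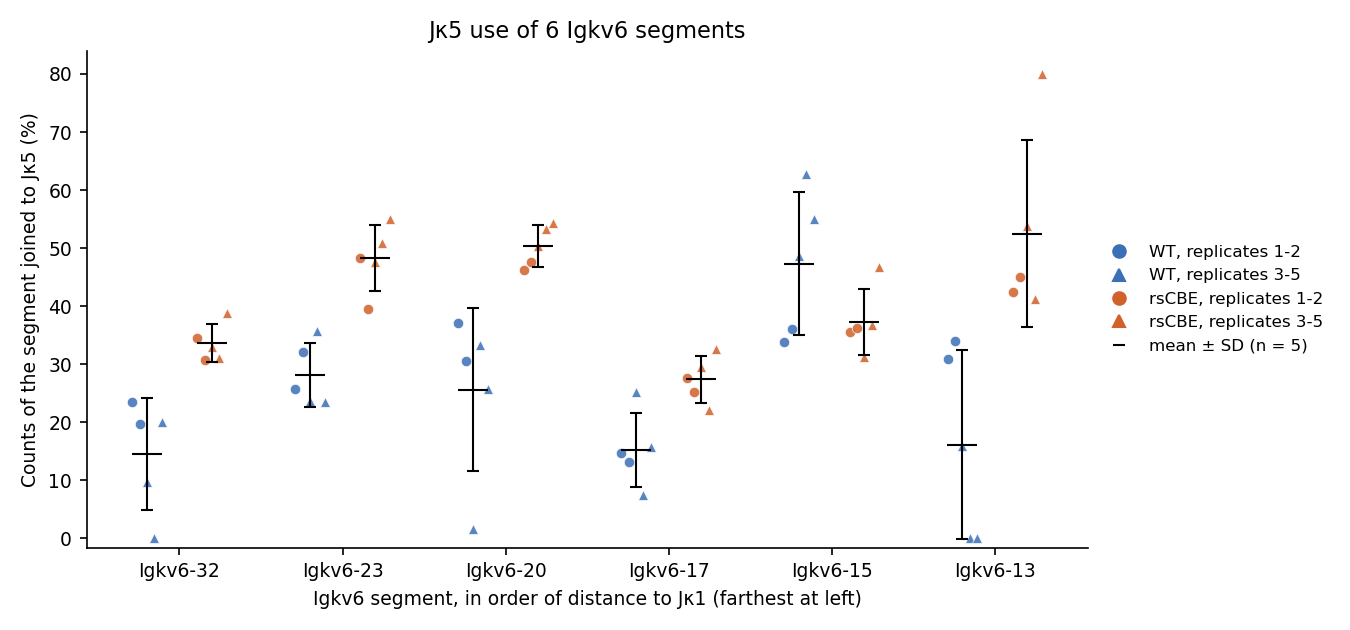
Share of each segment's counts joined to Jκ5 (%, vertical axis) for the 6 Igkv6 segments with a mean of at least 50 counts per sample; points are samples (circles, replicates 1 and 2; triangles, replicates 3 to 5) and black bars the mean ± SD of 5. The genotypes do not overlap for Igkv6-32, Igkv6-23, Igkv6-20 and Igkv6-13, and only Igkv6-15 has a lower mean in rsCBE.

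V-J pairs were also tested as shares of all Igk counts. The 8 segments were seen in 36 pairs with J segments, of which 21 had enough counts for the test, and none was called (0 of 270 pairs in all, 0%, by edgeR). Under an unadjusted p of 0.05 there were 2 member pairs, among 25 of 270 (9.26%). The first was Igkv6-32 with Jκ1, the commonest pair of that segment over all samples, at 0.778%, 0.767%, 0.984%, 0.708% and 1.09% of all counts in WT and 0.498%, 0.468%, 0.613%, 0.724% and 0.369% in rsCBE. Only rsCBE replicate 4 reached the WT range, and the fitted log2 change was -0.70 (SE 0.27, edgeR adjusted p = 0.459). With each clonotype counted once it was -0.15 (edgeR, unadjusted p = 0.491). The second was Igkv6-32 with Jκ2, at 0.498% ± 0.154 (SD, n = 5) in WT and 0.298% ± 0.0834 (SD, n = 5) in rsCBE, with a fitted log2 change of -0.75 (SE 0.32, edgeR adjusted p = 0.462). Igkv6-32 with Jκ5 was at 0.310% ± 0.216 (SD, n = 5) and 0.545% ± 0.0953 (SD, n = 5), a fitted log2 change of 0.74 (SE 0.48, edgeR adjusted p = 0.635). In rsCBE its mean was above that of Igkv6-32 with Jκ1, 0.534%.

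By mean share, the commonest pairs of the other segments were Igkv6-17 with Jκ1, Igkv6-14 with Jκ1, Igkv6-25 with Jκ1, Igkv6-13 with Jκ2, and Igkv6-15, Igkv6-20 and Igkv6-23 with Jκ5. Igkv6-17 with Jκ1 had the most counts over all samples, 1241 beside 1086 for Igkv6-32 with Jκ1, although in WT the mean share of the latter was higher (0.866%). It was at 0.826% ± 0.281 (SD, n = 5) in WT and 0.639% ± 0.0508 (SD, n = 5) in rsCBE, with a fitted log2 change of -0.39 (SE 0.28, edgeR adjusted p = 0.678). Within batch 1 alone this pair was lower in rsCBE (log2 change -0.72, SE 0.21, edgeR adjusted p = 0.0413), in a fit that called 12.3% of pairs, and within batch 2 the change was -0.09 (SE 0.34, edgeR adjusted p = 0.981). The difference between the batches was not tested. Igkv6-15 with Jκ5 was at 0.473% ± 0.272 (SD, n = 5) and 0.288% ± 0.123 (SD, n = 5), with a fitted log2 change of -0.67 (SE 0.43, edgeR adjusted p = 0.635).

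A rearrangement was counted as in frame when its CDR3 length was a multiple of 3 and held no stop codon. Igkv6 transcripts in frame made up 75.8%, 64.7%, 65.9%, 62.1% and 71.4% of the family in WT and 66.2%, 58.8%, 58.9%, 61.5% and 49.9% in rsCBE. The ranges overlapped, with WT replicate 1 highest and rsCBE replicate 5 lowest. The means were 68.0% ± 5.52 (SD, n = 5) and 59.1% ± 5.94 (SD, n = 5), and the difference of -8.92 points (p = 0.0397, exact permutation) did not pass after adjustment (adjusted p = 0.225, with 0% of the 17 families called). It was -7.73 points in batch 1 and -9.71 points in batch 2. The other V segments differed by -5.16 points, and the shift of Igkv6 against them was -3.76 points (exact permutation p = 0.0873). Without WT replicate 2 that shift was -4.78 points (p = 0.0159, exact permutation), and with each clonotype counted once it was -1.37 points (p = 0.468, exact permutation).

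All 6 members tested had a lower mean in-frame share in rsCBE, as did 72.5% of the 69 segments, and none was called (0 of 69, 0%, while 12 of 69, or 17.4%, and 2 of the 6 were under an unadjusted p of 0.05 by the exact permutation test). Igkv6-17 had the largest difference of the 6, from 73.6% ± 7.18 (SD, n = 5) to 56.9% ± 10.4 (SD, n = 5), with an adjusted p of 0.199 by exact permutation. Igkv6-32 had the smallest, from 80.7% ± 5.40 (SD, n = 5) to 78.7% ± 4.44 (SD, n = 5). For Igkv6-32 the difference was 1.54 points in batch 1 and -4.47 points in batch 2, and -8.81 points over all samples with each clonotype counted once (adjusted p = 0.350 by exact permutation). The median over the 6 was -14.6 points, beside -5.30 points over the 69. The level itself varied among members. The mean in-frame share of the remaining 4 tested members was 65.1% in WT and 50.5% in rsCBE for Igkv6-20, 57.3% and 42.7% for Igkv6-23, 52.9% and 44.0% for Igkv6-15, and 60.7% and 45.5% for Igkv6-13, with SDs from 4.70 to 27.6 points (n = 5), the widest being Igkv6-13 in WT. That WT mean includes 100% from 1 count in WT replicate 4 and 66.7% from 3 counts in WT replicate 5. Without single samples the Igkv6-13 difference, -15.2 points, ran from -23.1 to -5.38 points. Every sample of Igkv6-32, the lowest at 74.0%, lay above every sample of Igkv6-15, the highest at 67.0%, and of Igkv6-23, the highest at 68.9%.

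**Figure D4:**
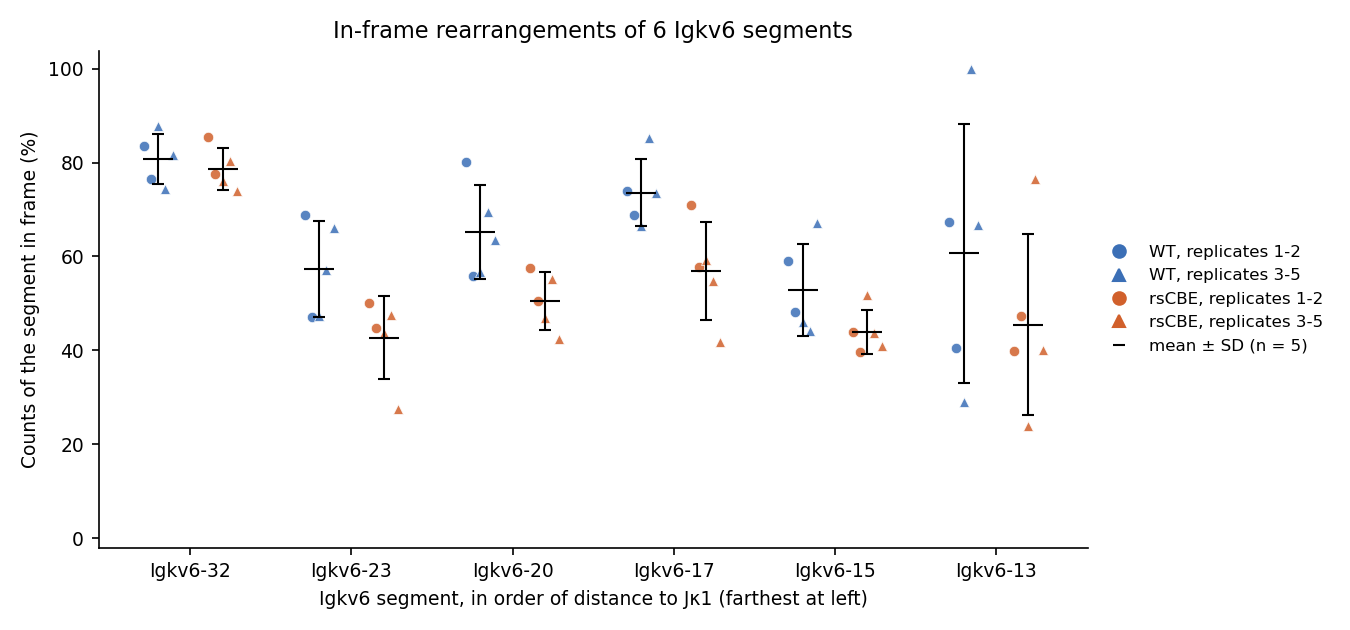
Share of each segment's counts that are in frame (%, vertical axis) for 6 Igkv6 segments; points are samples (circles, replicates 1 and 2; triangles, replicates 3 to 5) and black bars the mean ± SD of 5. Igkv6-32 stays between 74.0% and 87.8% in every sample, above all samples of Igkv6-15 and Igkv6-23.

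Reading frame varied with the J segment. Averaged over the 10 samples, 74.8% ± 6.48 (SD, n = 10) of Igkv6 joints to Jκ1 were in frame, 64.7% ± 5.65 (SD, n = 10) of those to Jκ2, 59.6% ± 11.9 (SD, n = 10) of those to Jκ4 and 55.1% ± 13.9 (SD, n = 10) of those to Jκ5. For the other V segments the same values were 71.4% ± 3.89, 72.8% ± 3.81, 65.9% ± 5.02 and 64.3% ± 5.31 (SD, n = 10). Within Jκ5 joints the in-frame share of Igkv6 was 60.3% ± 17.0 (SD, n = 5) in WT and 50.01% ± 9.08 (SD, n = 5) in rsCBE, which overlapped and was not tested.

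The joints themselves were mostly simple trims of the germline ends. Of Igkv6 counts with a readable V end, 85.1% ± 3.37 (SD, n = 10) held no base that was absent from the germline V or J end. The mean number of V bases trimmed was 2.84 ± 0.354 (SD, n = 5) in WT and 2.68 ± 0.0537 (SD, n = 5) in rsCBE (adjusted p = 0.720 by exact permutation), a difference of -0.16 that was -0.0059 without WT replicate 4. Untemplated bases numbered 0.512 ± 0.249 and 0.412 ± 0.0754 (SD, n = 5, adjusted p = 0.752 by exact permutation), with 0% of families called for either. The difference in untemplated bases, -0.10, was 0.0076 without WT replicate 4. In-frame CDR3s of Igkv6 were 27 bases long in 81.0% ± 4.29 (SD, n = 10) of in-frame counts, beside 76.3% ± 2.29 (SD, n = 10) in the other V segments, and the family was higher in 8 of 10 samples. These 27 bases encode 9 residues.

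The family had 1671 distinct clonotypes, each defined by its V and J segments and its CDR3 bases. Most, 1194, were seen in 1 sample only and held 16.0% of counts, while 10 were seen in all 10 samples and held 23.1%. The 10 belonged to Igkv6-17 (4), Igkv6-32 (4), Igkv6-15 (1) and Igkv6-23 (1), and none contained an untemplated base. They are shown in order of abundance, with V bases in lower case and J bases in capitals, because they are the recurrent products of the family; a base that both ends could have given is written as V.
Igkv6-17 with Jκ1: cagcaacattatagtactccGTGGACG
Igkv6-32 with Jκ1: cagcaggattatagctctccGTGGACG
Igkv6-32 with Jκ2: cagcaggattatagctctccGTACACG
Igkv6-17 with Jκ1: cagcaacattatagtactcctcGGACG
Igkv6-32 with Jκ4: cagcaggattatagctctccATTCACG
Igkv6-32 with Jκ1: cagcaggattatagctctcctcGGACG
Igkv6-17 with Jκ4: cagcaacattatagtactccATTCACG
Igkv6-17 with Jκ5: cagcaacattatagtactcctcACG
Igkv6-15 with Jκ5: cagcaatataacagctatcctctCACG
Igkv6-23 with Jκ4: cagcaatatagcagctatccATTCACG
The first, with 409 counts, made up 4.08% of Igkv6 counts and the second, with 394 counts, 3.93%. The commonest in-frame clonotype of each of the 8 segments was 27 bases long, kept 20 of the 23 V bases and had no untemplated base, including those of the segments missing from the list above. Among Igkv6 counts of WT samples the first clonotype averaged 4.65% ± 1.29 (SD, n = 5), beside 3.26% ± 1.41 (SD, n = 5) for rsCBE, and the second averaged 4.89% ± 1.54 beside 2.98% ± 1.16 (SD, n = 5). Neither was tested.

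The only out-of-frame clonotype among the 10, Igkv6-17 joined to Jκ5, was 25 bases long. In it 3 bases, ctc, stand in both germline ends, so the join cannot be placed within them. The commonest out-of-frame clonotypes of Igkv6-20, Igkv6-23 and Igkv6-25 had the same form.
Igkv6-20 with Jκ5: ggacagagttacagctatcctcACG
Igkv6-23 with Jκ5: cagcaatatagcagctatcctcACG
Igkv6-25 with Jκ5: cagcaacattatagcactcctcACG
These held 6.32%, 6.16% and 3.96% of the counts of their segments, and that of Igkv6-17 held 3.75%. Among Igkv6 joints without untemplated bases, 57.7% ± 5.76 (SD, n = 10) of out-of-frame counts and 11.6% ± 2.63 (SD, n = 10) of in-frame counts had at least 1 base that both ends could have given. At least 3 such bases were found in 14.8% ± 6.52 (SD, n = 10) of out-of-frame counts and in none of the in-frame counts. In the other V segments the shares with at least 1 shared base were 51.0% ± 1.86 and 22.8% ± 1.25 (SD, n = 10), and at least 3 were found in 13.9% ± 2.44 (SD, n = 10) of out-of-frame counts and 1.60% ± 0.358 (SD, n = 10) of in-frame counts. The out-of-frame share of Igkv6 with at least 3 was 10.3% ± 5.03 (SD, n = 5) for WT, its highest sample at 13.7%, beside 19.4% ± 4.43 (SD, n = 5) for rsCBE, its lowest at 15.4%, while the other V segments averaged 12.3% and 15.4%. These genotype values did not overlap for Igkv6 and were not tested. In the clonotypes shown above the 3 shared bases, ctc, came with Jκ5. Igkv6 used Jκ5 more often in rsCBE, and the part of this in the genotype values was not tested. These shares describe the letters of the joints, and they were looked at after the clonotypes had been seen.

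Within in-frame CDR3s of 9 residues, several residues at position 8 came almost always with 1 J segment. Position 7, whose codon starts in the V end, was proline in 98.2% ± 0.857 (SD, n = 10) of counts. Position 8, which lies at the joint, was leucine in 20.2% ± 3.45 (SD, n = 5) of WT and 27.7% ± 2.70 (SD, n = 5) of rsCBE counts, and 91.6% of these leucines came with Jκ5. Tryptophan, which came with Jκ1 in 99.8% of cases, was at 20.5% ± 4.14 and 16.2% ± 2.97 (SD, n = 5). Tyrosine, from Jκ2, was at 22.9% ± 1.63 and 23.4% ± 2.82 (SD, n = 5), and phenylalanine, mostly from Jκ4, at 16.5% ± 8.90 and 13.9% ± 2.43 (SD, n = 5). Proline at position 8, with 6.27% ± 2.69 (SD, n = 10) of counts, came with Jκ1 in 57.6% of cases. Leucine and tryptophan overlapped between genotypes, and none of these shares was tested.

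The CDR3 did not always identify the segment. Of Igkv6 counts, 9.57% had a J segment and CDR3 that also occurred under another member. For Igkv6-25, 87.4% of counts had a J segment and CDR3 also found under Igkv8-24, a segment of another family, so its counts depend on bases outside the CDR3. For Igkv6-17 1.65% of counts were shared with segments outside the family, and for the other 6 members none were.

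Compared with the pooled counts of all other V segments of the same samples, Igkv6 was lower in Jκ5, in reading frame and in the mean CDR3 length over all frames. Single families lay on both sides of Igkv6 for Jκ5. In WT their mean Jκ5 shares ran from 12.4% (Igkv10) to 40.5% (Igkv5), with Igkv6 at 24.3%. In rsCBE they ran from 17.2% (Igkv13) to 55.4% (Igkv5), with Igkv6 at 36.1%. The Jκ5 share of Igkv6 over all samples averaged 30.2% against 34.1%, a difference of -3.94 points that was below 0 in 8 of 10 samples (adjusted p = 0.0273 over 6 measures, exact sign-flip test). The in-frame share averaged 63.5% against 68.2%, -4.73 points and lower in 9 of 10 samples, and CDR3 length averaged 26.5 against 26.6 bases, -0.13 bases and lower in 9 of 10 samples (both adjusted p = 0.0117, exact sign-flip test). That length covers in-frame and out-of-frame joints together: in-frame CDR3s alone averaged 26.78 bases in Igkv6 and 26.70 in the other V segments, higher in Igkv6 in 8 of 10 samples, which was not tested. Within batches the Jκ5 difference was -3.31 and -4.36 points, the in-frame difference -4.67 and -4.76 points and the length difference -0.06 and -0.18 bases. Without WT replicate 3, WT replicate 4, rsCBE replicate 2 or rsCBE replicate 4 the Jκ5 difference missed the threshold (adjusted p = 0.0547 by exact sign-flip test), from -3.86 to -3.53 points. With each clonotype counted once the Jκ5 difference was -2.18 points (adjusted p = 0.0137) and the length difference -0.25 bases (adjusted p = 0.00781), both by exact sign-flip test. For Jκ1 the difference was -0.07 points (adjusted p = 0.939), for Jκ2 1.52 points (adjusted p = 0.277, and 0.892 points without WT replicate 5 or 2.33 without WT replicate 4) and for Jκ4 2.45 points (adjusted p = 0.167), all by the exact sign-flip test, and with each clonotype counted once all 3 passed it, at -3.95, 2.49 and 3.62 points. The Jκ4 difference also passed without WT replicate 5, at 3.21 points (adjusted p = 0.0234, exact sign-flip test).

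The V segments outside the family whose numbers place them among the Igkv6 segments, from 13 to 32, gave 8 segments with enough counts. By share, 0 of these 8 were called (0 of 98 in all), 7 had a fitted change above 0 (44.9% of the 98), and the median log2 change was 0.25, beside -0.09 for the family. By Jκ5, 2 of 8 were called, beside 15.9% of the 69 segments, and the median difference was 10.7 points, beside 19.6 points for the 6 Igkv6 segments and 8.60 points over the 69.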

How the data were processed

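The values are counts that the authors deposited in 1 table, with a V and J call, CDR3 and count per line; the labels do not say whether a count is a read or a molecule. Sorted cells gave the RNA, and libraries were read in 151-base pairs, per the labels' protocols; per the submitters' processing notes the build was mm10. The aligner and V caller are not given in the sources used here. Both reads carried the same V call on all 49079 lines. Totals were 3109 to 24083 counts per sample, which sets the precision.

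Parts a and b of a replicate were added. Shares were tested with edgeR 4.0.16 (R 4.3.3; quasi-likelihood F-test, total counts as library size, filterByExpr, Benjamini-Hochberg adjustment over each whole table of families, segments or V-J pairs, threshold 0.05), with DESeq2 1.42.0 as an alternative. Shares within families and segments, over features with a mean of at least 50 counts and 1 count in each sample, were compared by exact two-sided permutation tests (Python 3.11.15, scipy 1.17.1), adjusted over 17 families or 69 segments; Igkv6 was set against other V segments by exact sign-flip tests. V bases were the longest match to GENCODE M21 from the CDR3 start, at least 10 bases, then J bases from its end. Both tests were tested on simulated data. Alternatives were the scaling, filter, batch term, replicate block, each clonotype once, no clonotypes of 1 count, single parts and leaving out each sample.

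Replicate numbers come from the labels. Deviations of same-numbered samples correlated at 0.110 to 0.798 over the 5 pairs, and those of other samples of the same batch at 0.217 to 0.806. These values do not tell pairing from batch. The main genotype tests used no pairing, and only the replicate block, an alternative, took the numbers as pairs. The members and lists were chosen with earlier results of these data known. All 8 members are named; of V-J pairs, the commonest per segment and those under an unadjusted p of 0.05; of clonotypes, the commonest in frame per segment. Igkv6-32 with Jκ5, out-of-frame and recurrent clonotypes and shared bases were added after their values were seen. Recombination signal sequences and proteins were not used here.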

Additional observations from a re-analysis of the deposited data

Results flagged for a closer look

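Outliers were sought with Dixon's criterion in 34 groups of 5 samples, of which chance would flag about 1.7, and 2 were marked. Both were WT replicate 4, the sample with the fewest Igkv6 counts (169). Its Jκ2 share within Igkv6 was 17.2%, whereas the other 4 WT samples lay between 25.4% and 28.0%. Its Igkv6 joints held 0.943 untemplated bases on average, whereas the other 4 lay between 0.326 and 0.470. The part of the low count in these values was not tested.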

How the results depend on the processing

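The family's share kept its direction and its side of the threshold under all 9 alternatives (-0.15 to -0.045) and without each sample (-0.18 to -0.079), and no Igkv6 segment or V-J pair was called in any of them. With the replicate block no share of the family, its segments or its V-J pairs was called, although over all features 2 of 20 families and 1 of 98 segments were, beside 0 and 0 without it. The comparison of Igkv6 with the other V segments was not run with the block. For genotype differences within the family and its segments the block allowed no call. The smallest p of its exact sign-flip test over 5 pairs, 0.0625, is above the threshold. Exchange of labels within batches allows no exact permutation p under 0.0167. The Jκ5 difference within the family stayed at 11.8 points, with adjusted p of 0.152 and 0.0567 by these tests. The number of members called for Jκ5 was 0 under both. That number was also 0 without clonotypes of 1 count and 0 with each clonotype counted once, and ran from 0 to 4 without single samples. Exchange within batches, the block, the lack of clonotypes of 1 count and the leaving out of samples were chosen for this number after seeing the data, as were the block and the exchange within batches for trimmed and untemplated bases.

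Leaving out 1 sample moved the Jκ5 difference from 10.3 to 12.8 points (adjusted p from 0.0150 to 0.0578), and it missed the threshold without rsCBE replicates 1, 2, 3 or 5. The unadjusted p stayed at 0.00794 by exact permutation in each of these runs. The Jκ1 difference passed the threshold without clonotypes of 1 count (-9.35 points), in part a alone (-8.39 points) and without WT replicate 3 or 4, in a range from -9.46 to -6.96 points without single samples. It did not pass with each clonotype counted once (-4.84 points, adjusted p = 0.101) or in part b alone (-7.61 points, adjusted p = 0.108), both by exact permutation. Nor did it pass with labels exchanged within batches (adjusted p = 0.0810, exact permutation). The Jκ4 difference turned to 0.873 points with each clonotype counted once and ran from -3.98 to 0.285 points without single samples. CDR3 length ran from -0.034 to 0.078 bases and untemplated bases from -0.15 to 0.0076 bases. The difference in trimmed V bases, -0.16, ran from -0.22 to -0.0059 bases and was -0.30 with each clonotype counted once. The shift of Igkv6 against the other V segments ran from -0.091 to 2.95 points for Jκ5 and from -4.78 to -2.37 points for reading frame, where it was -1.37 points with each clonotype counted once. The Jκ2 difference ran from -3.50 to -0.791 points without single samples and was -3.90 points with each clonotype counted once.

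Igkv6 minus the other V segments, with each clonotype counted once, passed the threshold for Jκ1 (-3.95 points), Jκ2 (2.49 points) and Jκ4 (3.62 points), and was -2.18 points for Jκ5 beside -3.94. The Jκ4 difference also passed without WT replicate 5 (3.21 points, adjusted p = 0.0234 by exact sign-flip test). Without single samples these differences ran from -0.52 to 0.62 points for Jκ1, from 0.892 (without WT replicate 5) to 2.33 (without WT replicate 4) for Jκ2, from 1.17 to 3.21 points for Jκ4 and from -4.68 to -3.53 points for Jκ5.

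Small log2 changes of single segments changed sign, none being called. With each clonotype counted once Igkv6-13 was at -0.089 and Igkv6-20 at 0.13; in part a alone Igkv6-14 was at 0.073; in part b alone Igkv6-17 was at 0.058 and Igkv6-23 at 0.088; Igkv6-17 was at 0.027 under the replicate block and 0.018 without clonotypes of 1 count. Without single samples the ranges were -0.039 to 0.56 for Igkv6-13, -0.52 to 0.23 for Igkv6-14, -0.15 to 0.16 for Igkv6-17, -0.27 to 0.084 for Igkv6-20, -0.31 to 0.16 for Igkv6-23 and -0.27 to 0.32 for Igkv6-25. Those that kept their sign ran from -0.42 to -0.12 for Igkv6-15 and from -0.38 to -0.13 for Igkv6-32. The cause of these changes was not tested. Depth limits the rarer members most: Igkv6-13, Igkv6-14 and Igkv6-25 had samples with 1, 7 and 2 counts.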
